A study of Rattus norvegicus with 9 samples.

Results

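The genes described here are 10 members of the bone morphogenetic protein (BMP) and transforming growth factor beta (TGF-beta) system: the ligands Bmp4 and Bmp7, the antagonists Grem1, Fst, Bambi and Smad7, and the target genes Id1, Id2, Id3 and Tgfbi. They are 10 of the 10411 genes named on the array. Every probe set whose symbol in the array platform's probe-to-gene table was one of these names was taken, which gave 14 probe sets of the 15866 that are not controls. The arrays measured RNA of isolated rat ureteric buds, epithelial tubes whose branching builds the kidney's collecting duct tree. The buds came from Sprague-Dawley embryos at embryonic day 13 and grew without kidney mesenchyme for 4 days in a gel made in equal parts from type 1 collagen and Matrigel depleted of growth factors. Every medium held 125 ng/ml of GDNF and 250 ng/ml of FGF1. To these, HRG added 500 ng/ml of human recombinant heregulin alpha, which activates ErbB receptors. PTN added the secreted growth factor pleiotrophin, at about 3 µg/ml, which had been purified from the medium of a metanephric mesenchymal cell line, and BSN added that conditioned medium (BSN-CM) whole. Each medium had 3 arrays, each from 3 pooled buds. The series title counts PTN among the branching media and the sample description calls it non-branching, so the groups are named here by medium. No group had FGF1 and GDNF alone, so which medium of a pair moved cannot be told apart, and "rose" and "fell" below mean only higher or lower than in the medium named second.

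BMP and TGF-beta ligands bind pairs of serine/threonine kinase receptors, which phosphorylate SMAD proteins that then act on target genes in the nucleus. BMP signalling raises the Id genes, whose proteins bind basic helix-loop-helix transcription factors and keep them off DNA, and many antagonists are themselves targets, so the pathway limits its own activity. In the developing mouse kidney BMP4 restrains ureteric bud outgrowth, and gremlin, which binds BMP ligands outside the cell, is needed for the bud to invade the mesenchyme.

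The promoters of 5 members are shown because these genes were the ones that separated the media in different ways (Id1, Grem1 and Bambi) or belong to the Id family beside Id1 (Id2 and Id3). RefSeq on the rat build GRCr8 gave a window of 300 bases around a start for 8 of the 10 members. The 250 bases before that start are printed 5′ to 3′, with capitals for every match to a searched motif. That start is not always the outer end of the gene's locus. The Id1 and Id3 loci begin at 161671525 and 153656253. The last printed bases of these genes, with the Id1 match CAACTG, therefore lie inside the locus. The windows of Tgfbi and Bmp4, not printed, were also placed on starts inside their loci. The motifs, searched on both strands, were GGCGCC, known from elements bound by BMP-regulated SMADs, then CAGAC, the SMAD-binding element, then its palindrome GTCTAGAC, and last the E-box of basic helix-loop-helix factors, spelled CANNTG.
Id1 (chr3:161671314-161671563, plus strand): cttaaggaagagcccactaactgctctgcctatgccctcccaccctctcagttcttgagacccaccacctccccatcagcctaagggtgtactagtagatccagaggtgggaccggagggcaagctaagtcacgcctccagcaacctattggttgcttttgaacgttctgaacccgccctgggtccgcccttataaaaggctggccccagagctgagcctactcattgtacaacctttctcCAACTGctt
Id2 (chr6:47470996-47471245, minus strand): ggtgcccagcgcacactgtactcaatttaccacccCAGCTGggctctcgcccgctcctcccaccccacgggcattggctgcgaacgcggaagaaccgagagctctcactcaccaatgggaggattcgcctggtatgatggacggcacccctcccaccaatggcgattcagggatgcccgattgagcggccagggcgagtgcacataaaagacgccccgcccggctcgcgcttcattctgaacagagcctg
Id3 (chr5:153656041-153656290, plus strand): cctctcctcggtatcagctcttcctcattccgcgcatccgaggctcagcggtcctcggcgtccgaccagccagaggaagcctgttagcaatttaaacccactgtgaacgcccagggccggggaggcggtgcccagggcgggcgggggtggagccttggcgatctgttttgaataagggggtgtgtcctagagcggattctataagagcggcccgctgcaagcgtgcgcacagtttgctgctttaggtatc
Grem1 (chr3:120978320-120978569, minus strand): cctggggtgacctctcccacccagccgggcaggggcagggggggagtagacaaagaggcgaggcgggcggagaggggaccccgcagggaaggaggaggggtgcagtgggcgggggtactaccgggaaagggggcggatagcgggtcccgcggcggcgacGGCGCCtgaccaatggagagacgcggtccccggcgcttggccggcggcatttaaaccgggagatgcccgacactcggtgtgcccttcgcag
Bambi (chr17:58821004-58821253, minus strand): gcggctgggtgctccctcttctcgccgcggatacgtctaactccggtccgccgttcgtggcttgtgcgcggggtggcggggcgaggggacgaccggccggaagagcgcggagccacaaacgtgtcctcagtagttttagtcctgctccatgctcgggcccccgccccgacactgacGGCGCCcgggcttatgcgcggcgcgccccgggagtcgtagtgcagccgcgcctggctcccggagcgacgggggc
GGCGCC was present in the windows of 4 of the 8 members, against 11.0% of all 33469 windows of this length, and it stood at position -91 in Grem1 and -74 in Bambi, counted from the base before the start as -1. It was also in the windows of Tgfbi and Smad7, and in none of the 3 Id windows. This motif holds only G and C, and the share over all windows was not matched for these bases. Before the start, G and C made up 72.4% in Bambi, 72% in Grem1, 65.6% in Tgfbi and 78% in Smad7. In the members' windows without the motif they made up 54.8% to 66.4%, so the contrast is not read as enrichment. CAGAC was in 3 of the 8 windows, against 50.1% of all windows, and in Id1 it lay at position 24 after the start, beyond the printed stretch. In Grem1 it began at position -3 and ran past the start, so it is not in capitals. CANNTG was in 4 of the 8, against 72.1%, GTCTAGAC was in none, against 0.197%, and no matches of different motifs overlapped in these windows. A match describes letters, not a bound site, and these windows hold no measurement of their own.

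Signals are the deposited array intensities on a linear scale and have no unit. A probe set was tested when its signal was above the 40th percentile of its array on at least 3 of the 9 arrays, which kept 10106 probe sets and 10 of the 14 described here, for 8 of the 10 genes. Bmp4, Id3 and the dimmer probe sets of Id2 and Smad7 were below that filter. Differences are log2 of signal plus 16, fitted with limma across all kept probe sets with Benjamini-Hochberg adjustment, and an adjusted p under 0.05 passed. Where a group's mean was under the average 40th percentile of that group (691 in HRG, 632 in PTN and 750.0 in BSN), no fold is given, and the fitted difference there depends on the added 16. Pearson's r between arrays was 0.946 to 0.979 within a medium and 0.882 to 0.937 between media. The buds carried the marker RNAs of ureteric epithelium: 11 of the 12 genes of that list on the array were kept, and the list's summed signal was 160607 to 175781 in HRG, 140612 to 165605 in PTN and 168372 to 180194 in BSN. Its members did not move together: 1 was higher and 3 were lower in HRG against BSN, 1 was higher and 3 were lower in PTN against BSN, and 4 were higher and 3 were lower in HRG against PTN. Over all kept probe sets 15.8%, 22.5% and 25.8% passed in these comparisons. Ret, the GDNF receptor, was at 918 ± 171 in HRG, 18756 ± 850 in PTN and 13512 ± 1883 in BSN, and Krt19, an epithelial keratin, was at 10622 ± 600 in HRG, 2181 ± 96.3 in PTN and 2925 ± 660 in BSN (SD, n = 3; both picked after their values were seen). Of the list for metanephric mesenchyme, Wt1 and Gdnf were on the array and neither passed the filter on any array. Stromal markers had 3 of 7 measured genes kept, the collagens Col1a1, Col1a2 and Col3a1, with summed signals for the list of 2779 to 3499, 2958 to 3669 and 3038 to 3812 in HRG, PTN and BSN. Of 4 endothelial markers Kdr was kept and of 5 blood and macrophage markers Csf1r was, while Pecam1 and Ptprc were under the 40th percentile on all arrays. Kdr passed as lower in HRG against both other media, at 329 ± 27.6 in HRG, 840 ± 229 in PTN and 742 ± 29.5 in BSN (SD, n = 3), and its part in the falls in HRG given below was not tested.

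**Figure D1:**
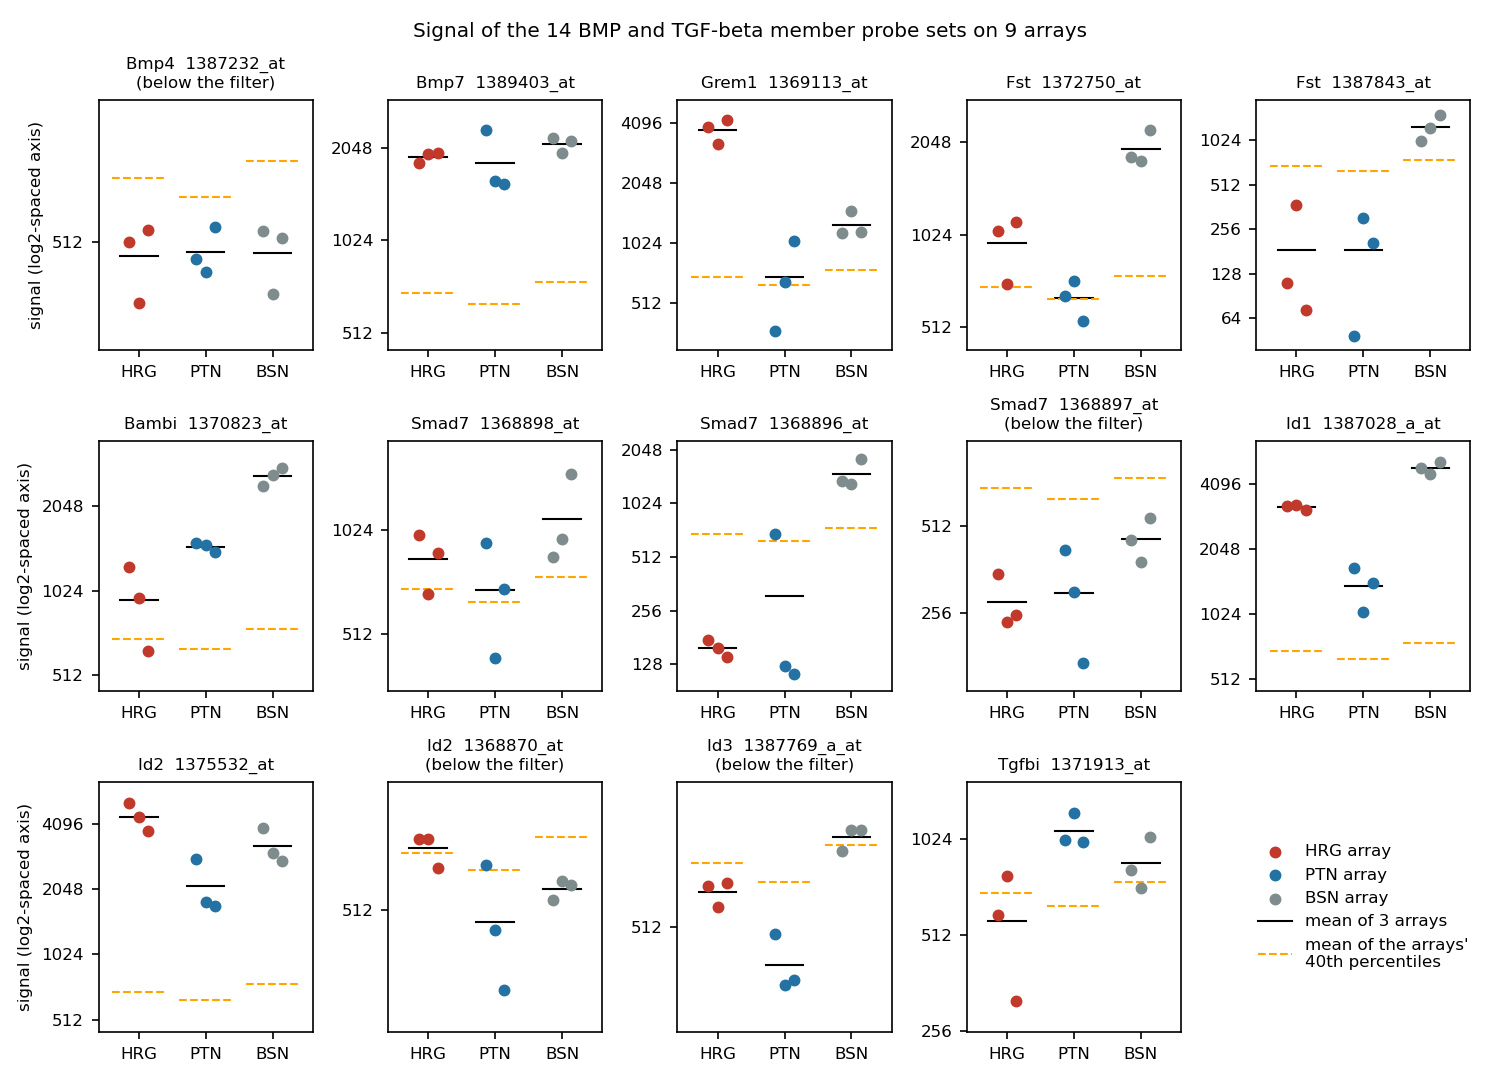
Signal (log2-spaced axis) of each of the 14 member probe sets on the 9 arrays, with HRG, PTN and BSN from left to right, a black line at the mean of 3 arrays and a dashed line at the mean of the arrays' 40th percentiles. The HRG arrays lie above all others for Grem1, the BSN arrays lie above all others for Id1, Bambi and both Fst probe sets, and all 9 arrays lie below the dashed lines for Bmp4. The dimmer Fst probe set was kept by the filter through its BSN arrays alone.

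Over the kept probe sets of these genes, 6 of 10 passed in HRG against BSN, 1 higher and 5 lower, where 15.8% of all kept probe sets passed (6.92% higher and 8.86% lower). In PTN against BSN 7 of 10 passed, 0 higher and 7 lower, against 22.5% of all (9.15% higher and 13.4% lower). In HRG against PTN 5 of 10 passed, 3 higher and 2 lower, against 25.8% of all (14.1% higher and 11.7% lower). After median centring of the arrays the splits over all kept probe sets were 802 higher and 778 lower, 1342 higher and 884 lower, and 1077 higher and 1418 lower for these comparisons, against 699 and 895, 925 and 1351, and 1423 and 1180 as deposited. The median difference over all kept probe sets was -0.11 in PTN against BSN on the log2 scale, so small falls there lie close to it. After median centring or quantile normalisation 5 of the 10 passed in PTN against BSN, all lower. The members were not drawn at random, and Smad7 and Fst each have 1 probe set that passed the filter through the BSN arrays alone, so these counts describe the members and carry no test. The arrays of the compared media did not overlap for 6 of the 10 in HRG against BSN, 1 higher and 5 lower, beside 37.0% of all kept probe sets (16.1% higher and 20.9% lower). They did not overlap for 6 in PTN against BSN, all lower, beside 38.5% (14.7% higher and 23.8% lower), and for 5 in HRG against PTN, 3 higher and 2 lower, beside 40.2% (22.9% higher and 17.4% lower). Leaving out PTN replicate 1 left the counts of HRG against BSN and HRG against PTN as they were and gave 9 in PTN against BSN, all lower. Without BSN replicate 3 the count in PTN against BSN was 4, and without HRG replicate 3 or PTN replicate 2 the count in HRG against PTN was 3. By the brightest probe set of each of the 8 genes, which leaves out both probe sets kept through BSN alone, 4 genes passed in HRG against BSN (1 higher, 3 lower), 5 in PTN against BSN (all lower) and 5 in HRG against PTN (3 higher, 2 lower). In bulk RNA fewer cells of a type and less RNA per cell cannot be told apart.

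**Figure D2:**
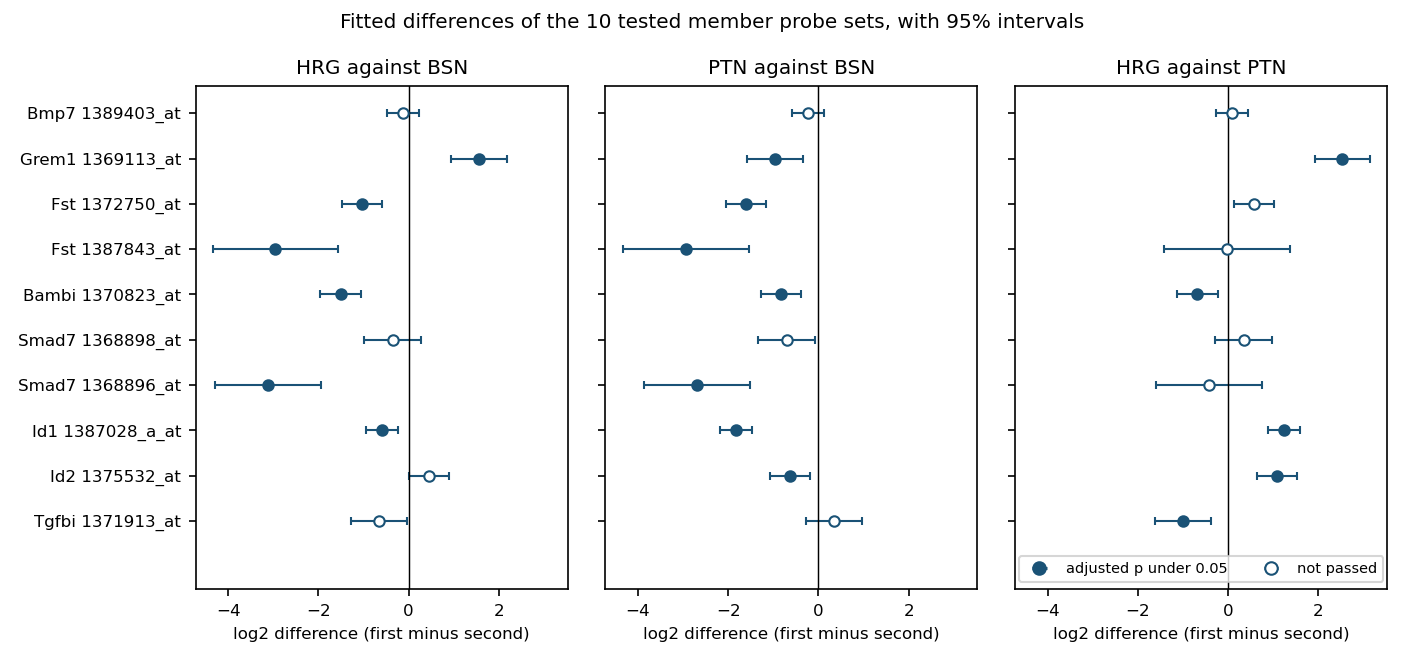
Fitted log2 differences (x axis, first medium minus second) of the 10 tested member probe sets with their 95% intervals, which are not adjusted for the number of probe sets, so an interval may leave out 0 without passing. Filled points passed at an adjusted p under 0.05. Grem1 lies to the right in HRG against BSN and to the left in PTN against BSN.

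Of the ligands, Bmp7 passed in no comparison and Bmp4 was below the filter. Bmp7, a ligand made by the bud epithelium itself in the developing kidney, had signals of 1825, 1948 and 1967 in HRG, 2337, 1594 and 1555 in PTN and 2194, 1966 and 2145 in BSN. The groups overlapped in every pairing, and PTN replicate 1 was the highest array while the other PTN arrays were the lowest. The log2 difference was -0.13 in HRG against BSN (95% interval -0.49 to 0.22, adjusted p = 0.654 with limma), -0.22 in PTN against BSN (-0.57 to 0.13, adjusted p = 0.345 with limma) and 0.09 in HRG against PTN (-0.26 to 0.44, adjusted p = 0.731 with limma). Without PTN replicate 1 the fall in PTN against BSN passed (log2 difference -0.41, adjusted p = 0.0302 with limma). Bmp4, a ligand known mainly from the mesenchyme around the bud, was at 512, 383 and 542 in HRG, 471.5, 445 and 550 in PTN and 539, 400 and 522 in BSN. All 9 values were below the 40th percentile of their arrays and the groups overlapped throughout. Fitted with no filter, its adjusted p was 0.974 in HRG against BSN, 0.981 in PTN against BSN and 0.947 in HRG against PTN with limma.

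Grem1, encoding the secreted BMP antagonist gremlin, separated all media. Its signal was 3886, 3208 and 4250 in HRG, 372, 655 and 1050 in PTN and 1150, 1490 and 1164 in BSN. The HRG arrays were the highest, the PTN arrays the lowest, and no medium overlapped another. The PTN mean of 692 was close to that group's average 40th percentile of 632, and PTN replicate 1 was below the percentile of its array. The fold in HRG against PTN therefore starts from a signal near the floor. Grem1 rose 2.96-fold in HRG against BSN (log2 difference 1.56 ± 0.284 SE, adjusted p = 0.00221 with limma). In HRG against PTN it rose 5.78-fold (log2 difference 2.53 ± 0.284 SE, adjusted p = 3.88e-05 with limma). Both of these calls held with each array left out in turn and under all other alternatives tried. In PTN against BSN it fell by 0.97 on the log2 scale (adjusted p = 0.0284 with limma), a call with less support: it was lost after quantile normalisation (0.125), after median centring (0.0633), with no filter (0.0612), in a fit of only these groups (0.0635) and without PTN replicate 2 (0.0548), BSN replicate 1 (0.0560), BSN replicate 2 (0.0964) or BSN replicate 3 (0.0616). The kept probe sets whose log2 signals were most like Grem1 over the 9 arrays were those of Baiap2l1 (r = 0.976), Lgals3 (r = 0.972) and Arhgap1 (r = 0.965).

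Fst, encoding follistatin, which binds activins and with lower affinity BMPs, was highest in BSN on the brighter of its probe sets. The brighter, 1372750_at, was at 1052, 707 and 1129 in HRG, 647, 722 and 537.5 in PTN and 1836, 1778 and 2249 in BSN. The BSN arrays lay above all others, while HRG and PTN overlapped. In PTN only replicate 2 was above the 40th percentile of its array. The PTN mean of 635 was barely over that group's average 40th percentile of 632, so the fold in PTN against BSN starts from a signal near the floor. It fell 2.04-fold in HRG against BSN (log2 difference -1.03 ± 0.205 SE, adjusted p = 0.00416 with limma) and 3.03-fold in PTN against BSN (log2 difference -1.60 ± 0.205 SE, adjusted p = 0.000273 with limma). HRG and PTN did not differ at the threshold (log2 difference 0.57, 95% interval 0.12 to 1.01, adjusted p = 0.0591 with limma), although they did without HRG replicate 2 (0.0178). The second probe set, 1387843_at, was at 110, 373.5 and 72.5 in HRG, 48.1, 305 and 206 in PTN and 1016, 1239 and 1536 in BSN, so it was above the 40th percentile only on the 3 BSN arrays. Having passed the filter through the medium where it was high, it had to differ, and its tests against BSN are not used. Most like the brighter probe set over the 9 arrays were Pex14 (r = 0.979), Cited2 (r = 0.977) and Ccm2 (r = 0.970).

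Bambi, a kinase-lacking pseudoreceptor that blocks BMP and TGF-beta receptors at the membrane, took a different order. It was at 1249, 965 and 624 in HRG, 1516, 1493 and 1410 in PTN and 2421, 2649 and 2797 in BSN. No medium overlapped another, with HRG lowest and BSN highest. The fall was 2.84-fold in HRG against BSN (log2 difference -1.51 ± 0.207 SE, adjusted p = 0.000317 with limma), and it was kept with each array left out. It was 1.77-fold in PTN against BSN (log2 difference -0.82 ± 0.207 SE, adjusted p = 0.0134 with limma), lost without BSN replicate 3 (0.0551). In HRG against PTN Bambi was 1.61-fold lower (adjusted p = 0.0283 with limma), a call lost with no filter (0.0587), in a fit of only these groups (0.0642) and without HRG replicate 2 (0.0538), HRG replicate 3 (0.109), PTN replicate 2 (0.0648) or PTN replicate 3 (0.0532). The nearest patterns over the 9 arrays were Tmem201 (r = 0.982), Lrrc20 (r = 0.982) and Olfm1 (r = 0.977).

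Smad7, the inhibitory SMAD that sends activated receptors to degradation, had 3 probe sets that disagreed. On 1368896_at the signal was 175, 158.5 and 141.5 in HRG, 691, 125 and 113 in PTN and 1372, 1312 and 1829 in BSN. The BSN arrays alone were above the 40th percentile, and PTN replicate 1 stood apart from the other PTN arrays. It too passed the filter through BSN alone, so its tests against BSN are not used. The brightest probe set, 1368898_at, overlapped between all media, at 994, 670.1 and 880.5 in HRG, 942, 434 and 689 in PTN and 859, 967 and 1493 in BSN. It did not pass in HRG against BSN (log2 difference -0.35, 95% interval -0.98 to 0.27, adjusted p = 0.472 with limma) or in PTN against BSN (-0.70, -1.33 to -0.07, adjusted p = 0.103 with limma, and 0.0220 without PTN replicate 1). The third, 1368897_at, was below the filter on all 9 arrays, at 239 to 349 in HRG, 172 to 424 in PTN and 382 to 543.5 in BSN. All 3 were lower on average in HRG and in PTN than in BSN, by unequal amounts. With all arrays in the fit described above, no Smad7 test against BSN that is used here passed. Whether Smad7 changed is therefore uncertain. The probe sets of 1368896_at's nearest patterns were of Fstl1 (1368822_at, r = 0.991), Mex3a (r = 0.981) and Pmepa1 (r = 0.973). This likeness rests on the same high BSN arrays that kept 1368896_at, so it is not read as a trait of Smad7. For the brightest probe set, 1368898_at, the nearest were other genes: Emp3 (r = 0.970), Hlf (r = 0.953) and Ndufaf7 (r = 0.949).

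Id1, a direct BMP target in many cell types, was highest in BSN and lowest in PTN. It was at 3255, 3277 and 3119 in HRG, 1668, 1051 and 1421 in PTN and 4856, 4547 and 5181 in BSN. The media did not overlap, and HRG lay between the others. Id1 fell 3.55-fold in PTN against BSN (log2 difference -1.83 ± 0.162 SE, adjusted p = 1.94e-05 with limma), and it was 2.36-fold higher in HRG than in PTN (log2 difference 1.24 ± 0.162 SE, adjusted p = 0.000129 with limma). Both calls held with each array left out. The 1.51-fold fall in HRG against BSN (log2 difference -0.59 ± 0.162 SE, adjusted p = 0.0249 with limma) was lost when any of the HRG or BSN arrays was left out, with adjusted p between 0.0505 and 0.0929. Nearest in pattern were Tmem150a (r = 0.979), Slc4a1ap (r = 0.977) and Dusp2 (r = 0.976).

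Id3 had the same order at lower signals, and all of its arrays but BSN replicates 2 and 3 were below the 40th percentile. It was at 619, 561.5 and 629 in HRG, 494, 389 and 398 in PTN and 732, 806 and 807 in BSN. The media did not overlap, as was true of 29.9% of all 15866 probe sets in HRG against BSN, 31.4% in PTN against BSN and 31.6% in HRG against PTN. With no filter 9.13% of all probe sets passed in HRG against BSN, 12.9% in PTN against BSN and 14.8% in HRG against PTN. There Id3 was lower in PTN at an adjusted p of 0.0179 with limma, and it did not pass in HRG against BSN (0.331) or HRG against PTN (0.136). The actin control's 3′/5′ signal ratio, a measure of how far labelled RNA is shortened toward its 3′ end, followed the same order of media as Id1 and Id3, at 25.2 ± 5.86 in HRG, 16.6 ± 1.40 in PTN and 33.2 ± 4.91 in BSN (SD, n = 3). A two-sided exact permutation test of that ratio gave p = 0.2 in HRG against BSN and p = 0.1 in both comparisons that involve PTN, 0.1 being the smallest that 3 against 3 arrays can give. The GAPDH control's ratio had another order, at 2.92 ± 0.802 in HRG, 5.14 ± 1.98 in PTN and 4.57 ± 1.11 in BSN (SD, n = 3), with exact permutation p = 0.1 in HRG against BSN, 0.8 in PTN against BSN and 0.3 in HRG against PTN. The part of RNA quality in these falls was not tested.

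Id2, like Id1, was lowest in PTN. Its brighter probe set, 1375532_at, was at 5091, 4386 and 3775.5 in HRG, 2810.5, 1791 and 1718 in PTN and 3923, 3019 and 2754 in BSN, so HRG rather than BSN held the highest arrays. HRG and PTN did not overlap, and each overlapped with BSN. Id2 was 2.13-fold higher in HRG than in PTN (log2 difference 1.09 ± 0.203 SE, adjusted p = 0.00183 with limma), a call kept with each array left out. HRG and BSN did not differ at the threshold (log2 difference 0.45, 95% interval 0.01 to 0.89, adjusted p = 0.164 with limma), but did with the replicate number as a block (0.0422). Each HRG array was above the BSN array of the same number. Id2 fell by 0.63 on the log2 scale in PTN against BSN (adjusted p = 0.0410 with limma), a call that ended after quantile normalisation (0.0925), after median centring (0.0800), with no filter (0.0692), with no intensity trend (0.0571), in a fit of only these groups (0.0665) and without HRG replicate 2 (0.0576), PTN replicate 2 (0.126), PTN replicate 3 (0.145), BSN replicate 1 (0.154), BSN replicate 2 (0.0740) or BSN replicate 3 (0.0523). The second probe set, 1368870_at, was below the filter at 638 to 744.5 in HRG, 338 to 648 in PTN and 540.5 to 596 in BSN, and gave no call with no filter. The patterns nearest to 1375532_at were those of Slc23a1 (r = 0.984), Mrpl44 (r = 0.970) and Card19 (r = 0.968).

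Tgfbi, encoding a matrix protein induced by TGF-beta, was lowest in HRG and highest in PTN. It was at 592, 783 and 317 in HRG, 1011.5, 1230 and 998 in PTN and 815, 720 and 1038 in BSN. HRG and PTN did not overlap, and BSN overlapped with both. The HRG mean of 564 was under that group's average 40th percentile of 691, and only HRG replicate 2 was above the percentile of its array. Tgfbi fell in HRG against PTN (95% interval of the log2 difference -1.62 to -0.38, adjusted p = 0.0218 with limma), a call lost without HRG replicate 3 (0.0779) or PTN replicate 2 (0.0724). It did not pass in HRG against BSN (log2 difference -0.66, 95% interval -1.29 to -0.04, adjusted p = 0.149 with limma) or in PTN against BSN (0.34, -0.28 to 0.96, adjusted p = 0.422 with limma). Mki67 (r = 0.925), Stau2 (r = 0.911) and Brpf1 (r = 0.908) had the nearest patterns. All these values of r run over 9 arrays in 3 media that share the deposited scaling, and they describe likeness alone.

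The rest of the pathway was read from 79 genes in 5 lists by role, of which 38 had a kept probe set. In HRG against BSN 4 were higher, 11 were lower and 23 did not pass, in PTN against BSN 2, 6 and 30, and in HRG against PTN 6, 7 and 25. That is 39.5%, 21.1% and 34.2% of the 38 genes, each taken by its brightest kept probe set. The shares given above, 15.8%, 22.5% and 25.8%, run over all kept probe sets, dimmer ones of the same gene included. These shares were not matched for signal, so no excess or shortfall is read from them. HRG against BSN and PTN against BSN share the BSN arrays, so their values are given side by side.

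Among ligands, Bmp3, a family member known to oppose other BMPs, moved as Grem1 did in HRG: it was at 2295 ± 367 in HRG, 659 ± 114 in PTN and 923 ± 194 in BSN (SD, n = 3). It rose 2.48-fold in HRG against BSN (adjusted p = 0.000717 with limma) and 3.43-fold in HRG against PTN (adjusted p = 4.18e-05 with limma), the 1 of 5 tested ligands to pass in either. Its PTN mean was close to that group's average 40th percentile of 632, so the 3.43-fold rise starts from a signal near the floor. Inhba, the subunit of activin A, passed as lower in PTN against BSN (log2 difference -0.87, adjusted p = 0.0322 with limma), with signals of 677 ± 87.1 in HRG, 685 ± 239 in PTN and 1216 ± 199 in BSN (SD, n = 3). That Inhba call was lost after quantile normalisation (0.0750), after median centring (0.0527), with no filter (0.0627), in a fit of only these groups (0.0547) and without PTN replicate 3 (0.110), BSN replicate 2 (0.0923) or BSN replicate 3 (0.120). In HRG against BSN the difference was close in size (-0.83) and did not pass (adjusted p = 0.0502 with limma), although it did with a pseudocount of 64 (0.0467), with no intensity trend (0.0476), with array weights (0.0189), in a fit of only these groups (0.00906) and without PTN replicate 1 (0.0216) or PTN replicate 3 (0.0142).

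Among receptors, Bmpr2, the type II receptor of BMPs, showed the order of Id1. It was at 2894 ± 215 in HRG, 1889 ± 762 in PTN and 6165 ± 615 in BSN (SD, n = 3). It fell 2.12-fold in HRG against BSN (adjusted p = 0.00425 with limma) and 3.40-fold in PTN against BSN (adjusted p = 0.000204 with limma), and both calls held under all alternatives tried. The difference between HRG and PTN passed (log2 difference 0.68, adjusted p = 0.0359 with limma) but was lost after quantile normalisation (0.0535), with no filter (0.0654), with no intensity trend (0.0525), in a fit of only these groups (0.0687) and without HRG replicate 1 (0.0821), HRG replicate 2 (0.0669), HRG replicate 3 (0.111), PTN replicate 2 (0.113) or PTN replicate 3 (0.141). Acvr2a, a type II activin receptor, was at 3313 ± 155 in HRG, 2191 ± 612 in PTN and 2123 ± 308 in BSN (SD, n = 3). It passed as higher in HRG than in BSN (adjusted p = 0.0416 with limma) and than in PTN (0.0317). The first call was lost with no filter (0.0737), with no intensity trend (0.0594) and when any HRG or BSN array was left out (0.0669 to 0.163). The second was lost after quantile normalisation (0.0742), after median centring (0.0738), with no filter (0.0586), in a fit of only these groups (0.0516) and without PTN replicate 1 or any HRG array (0.0670 to 0.0905). The other 4 of 6 tested receptors passed in no comparison.

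Among 12 tested signal transducers and regulators, Tgif1, a corepressor of SMAD target genes, was lower in both HRG and PTN than in BSN. It was at 5833 ± 489 in HRG, 5981 ± 570 in PTN and 11156 ± 2043 in BSN (SD, n = 3), with adjusted p of 0.00130 in HRG against BSN and 0.00182 in PTN against BSN with limma. Skil, encoding the corepressor SnoN, fell 1.66-fold in PTN against BSN (adjusted p = 0.00538 with limma) and did not pass in HRG against BSN (0.0522). There it passed after quantile normalisation (0.0227), with the 60th percentile filter (0.0451), with array weights (0.0163), in a fit of only these groups (0.00536) and without PTN replicate 1 (0.0190) or PTN replicate 2 (0.0123). Smad1, a receptor-regulated SMAD of the BMP branch, was highest in PTN, at 8029 ± 1012 in HRG, 11302 ± 1533 in PTN and 6895 ± 490 in BSN (SD, n = 3). It rose 1.63-fold in PTN against BSN (adjusted p = 0.00423 with limma) on its brighter probe set. The dimmer one, 1369174_at, had the opposite sign without passing (log2 difference -0.37, adjusted p = 0.217 with limma), at 684 ± 18.3 in PTN and 893 ± 107 in BSN (SD, n = 3), so the direction of Smad1 is uncertain. In HRG against PTN the brighter probe set was lower (0.0226, lost without HRG replicate 2 at 0.0730 or HRG replicate 3 at 0.0975). Smad5, its close relative, was at 3566 ± 133 in HRG, 6159 ± 704 in PTN and 5036 ± 241 in BSN (SD, n = 3) and fell 1.72-fold in HRG against PTN (adjusted p = 0.000727 with limma), as did its second kept probe set (0.00251). Its fall in HRG against BSN (0.0185) was lost without HRG replicate 3 (0.0758), BSN replicate 2 (0.0712) or BSN replicate 3 (0.0592), and the second probe set did not pass there (0.0990). In PTN against BSN Smad5 did not pass (0.129), but it was called higher after median centring (0.0433) and with array weights (0.0327).

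By the brightest probe set of each, all 4 tested genes of the list of other extracellular antagonists and ligand-binding proteins passed in both comparisons of HRG, 1 higher and 3 lower in each. Sostdc1, a secreted antagonist of BMP and Wnt ligands, rose as Grem1 did: it was at 21891 ± 3310 in HRG, 11553 ± 2552 in PTN and 11512 ± 744 in BSN (SD, n = 3), with an adjusted p of 0.00255 against BSN and 0.00154 against PTN by limma. Ltbp1, which holds latent TGF-beta in the matrix, was at 424 ± 125 in HRG, 2214 ± 312 in PTN and 1214 ± 167 in BSN (SD, n = 3). It was lower in HRG than in PTN (adjusted p = 1.16e-05 with limma) and than in BSN (0.000591), and by the brightest probe set of each gene it was the 1 gene of this list to pass in PTN against BSN, where it rose 1.81-fold (0.0175, lost without PTN replicate 2 at 0.0555 or BSN replicate 3 at 0.0775). Twsg1, a BMP-binding partner of chordin, was at 10758 ± 401 in HRG, 15290 ± 866 in PTN and 15981 ± 1248 in BSN (SD, n = 3). Fstl1, a secreted relative of follistatin, was at 8362 ± 904 in HRG, 13168 ± 2606 in PTN and 16170 ± 1320 in BSN (SD, n = 3) on its brightest probe set. Twsg1 was lower in HRG than in PTN (adjusted p = 0.00639 with limma) and than in BSN (0.00478), and so was Fstl1 (0.00782 and 0.000932). The Fstl1 probe set 1368822_at, whose pattern was nearest to that of the Smad7 probe set 1368896_at, was at 4970 ± 161 in HRG, 6093 ± 2151 in PTN and 9996 ± 564 in BSN (SD, n = 3), and it passed as lower in HRG against BSN (adjusted p = 0.00315 with limma) and in PTN against BSN (0.0132). It did not pass in HRG against PTN (log2 difference -0.24, adjusted p = 0.396 with limma), unlike the brightest Fstl1 probe set. The dimmest kept one, 1368821_at, was at 526 ± 91.0 in HRG, 496 ± 113 in PTN and 706 ± 179 in BSN (SD, n = 3). It passed neither in HRG against BSN (adjusted p = 0.386 with limma) nor in PTN against BSN (0.223). In HRG against PTN its log2 difference had the opposite sign without passing (0.09, adjusted p = 0.848 with limma).

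Of 11 further target genes tested, 1 was higher and 5 were lower in HRG against BSN, 0 were higher and 2 were lower in PTN against BSN, and 2 were higher and 2 were lower in HRG against PTN. Over all kept probe sets 15.8%, 22.5% and 25.8% passed in these comparisons. Pmepa1, a TGF-beta target that holds back receptor-regulated SMADs, was at 984 ± 73.3 in HRG, 1306 ± 434 in PTN and 4009 ± 903 in BSN (SD, n = 3). It fell 3.97-fold in HRG against BSN (adjusted p = 5.00e-05 with limma) and 3.10-fold in PTN against BSN (adjusted p = 0.000339 with limma). Cdkn1a, the cell cycle inhibitor p21, was at 4331 ± 338 in HRG, 3031 ± 267 in PTN and 7184 ± 349 in BSN (SD, n = 3), and it fell in HRG (0.00176) and in PTN (6.24e-05) against BSN by limma. It was higher in HRG than in PTN (0.0105, lost without HRG replicate 2 at 0.0513). Fn1, encoding fibronectin, was at 2687 ± 163 in HRG, 5695 ± 704 in PTN and 5765 ± 556 in BSN (SD, n = 3), lower in HRG than in BSN (0.000157) and than in PTN (0.000108). Gata2, a transcription factor, went the other way, at 11438 ± 551 in HRG, 4455 ± 484 in PTN and 5129 ± 786 in BSN (SD, n = 3), and rose in HRG against BSN (0.000139) and against PTN (2.45e-05). Tsc22d1, named for its induction by TGF-beta, fell in HRG against BSN (0.00568) and against PTN (0.0481, lost with no filter at 0.134, with no intensity trend at 0.103, in a fit of only these groups at 0.0958 and, but for PTN replicate 1, without any of the arrays at 0.0533 to 0.150). Klf10, an early TGF-beta response gene named here after its value was seen, was the fifth that was lower in HRG against BSN (0.0451), a call lost after median centring (0.0904), with no filter (0.0588), with no intensity trend (0.0627), without HRG replicate 1 (0.147), HRG replicate 3 (0.162), PTN replicate 2 (0.0544) or PTN replicate 3 (0.0522), and without any BSN array (0.0832 to 0.143).

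**Figure D3:**
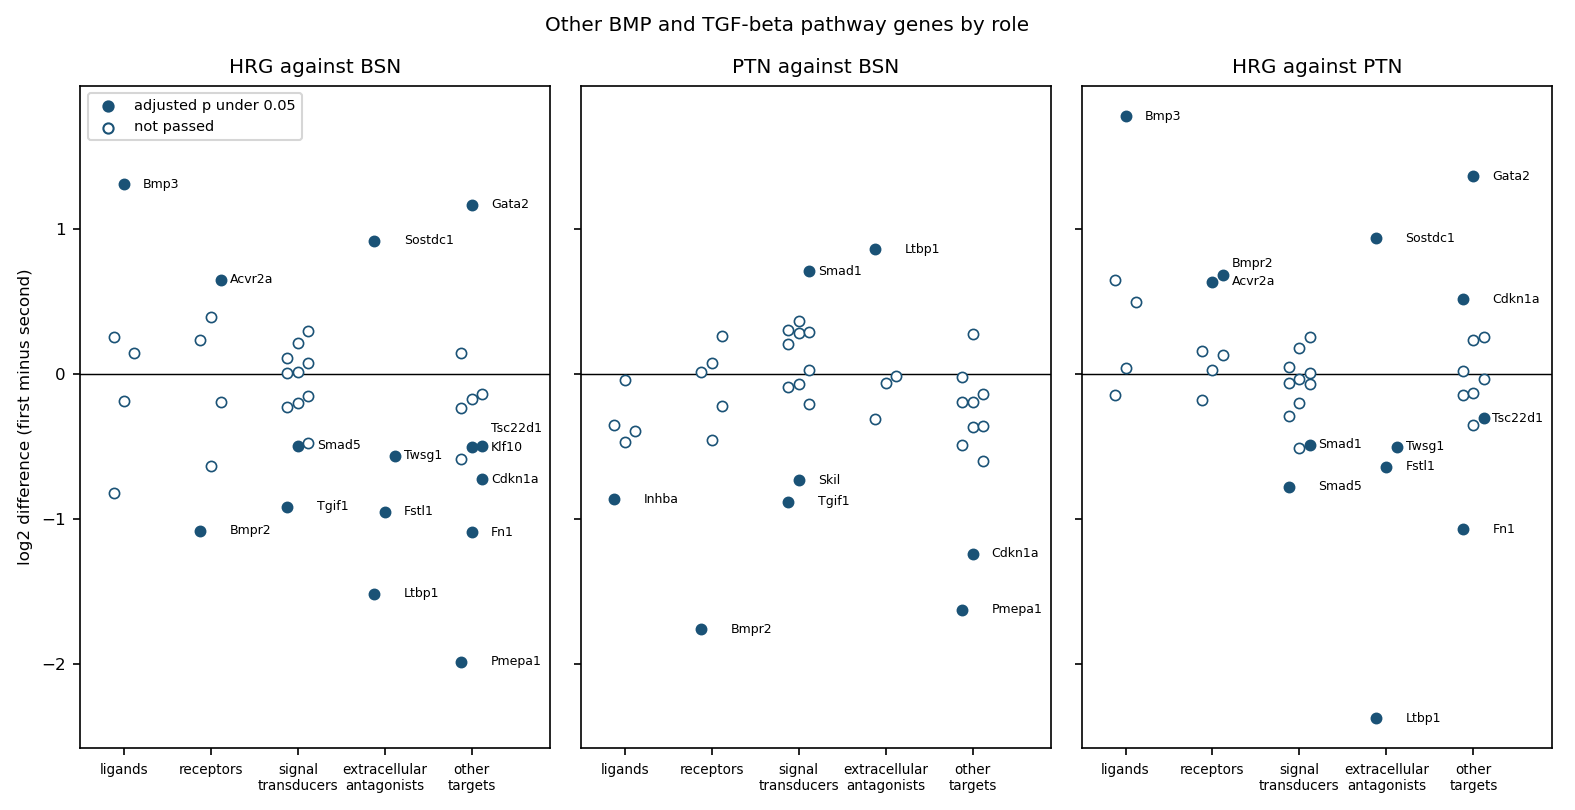
Fitted log2 differences (y axis, first medium minus second) of the 38 other pathway genes with a kept probe set, by role on the x axis, with filled and named points for an adjusted p under 0.05. Bmp3, Sostdc1 and Gata2 lie highest in their columns in both comparisons of HRG, and Ltbp1 lies above 0 in PTN against BSN and below 0 in the comparisons of HRG.

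Set side by side, the antagonists did not move as 1 group. In HRG against BSN Grem1 and Sostdc1 rose, Fst and Bambi fell, and Smad7 passed on no probe set whose test is used. The other tested genes of the list that holds Sostdc1, namely Ltbp1, Twsg1 and Fstl1, fell there by their brightest probe sets. In PTN against BSN Fst and Bambi fell, as did Grem1 in a call that both other scalings ended, while Ltbp1 rose. Id1 and Id2 were both lower in PTN than in either other medium, Id2 against BSN in a call that both other scalings also ended. The limma p-values rest on 1 spread per probe set, pooled from the arrays within all 3 media and moderated over the kept probe sets. The design text calls the 3 arrays of each medium biological replicates.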

How the data were processed

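The table holds signal intensities of 9 arrays, deposited by the authors on a linear scale. Per the labels' protocols, RNA was amplified by double in vitro transcription, and the submitters' processing notes name GCOS with no version or step. The trimmed mean signal, leaving out 2% at each end, was 2500.48 to 2500.58 on all arrays, so no further scaling was applied. Of 15923 probe sets 57 controls were set aside. Probe sets were named from GEO's platform annotation, which pairs 12789 of them with 1 symbol and 312 with several, while 2822 that it does not list stay unnamed here; symbols were looked up in RefSeq by Entrez ID for 12754 and by accession for 2, which changed 1. No probe set with several symbols held a member.

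The tests used limma 3.58.1 under R 4.3.3 (lmFit, then eBayes with trend) on log2 of the signal plus 16, with all 9 arrays in 1 fit, with 6 residual and 12.7 moderated degrees of freedom. The script was checked on simulated data. Folds on this scale understate changes of dim probe sets. A gene is represented by its brightest kept probe set. All member probe sets are named, as are pathway genes that passed in at least 1 comparison, at most 4 per list by moderated t plus the members of any count of 3 or fewer. The 3 nearest patterns are by Pearson's r over 9 arrays. Members and lists were chosen with earlier results of these data known. Deviations of same-numbered arrays from their medium's mean correlated at 0.118 to 0.332 in all 3 HRG and PTN pairs, a pairing that the labels do not state. The correlations were -0.0551 to 0.130 in the HRG and BSN pairs and -0.0970 to -0.0112 in the PTN and BSN pairs. Alternatives were quantile normalisation, median centring, pseudocounts of 1 and 64, no filter, a 60th percentile filter, a fit without the trend, weights per array, fits of 2 groups alone, a replicate block, leaving out each array and averaging the probe sets of each gene. Figures used Python 3.11.15 and matplotlib 3.10.9.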

Additional observations from a re-analysis of the deposited data

How the results depend on the processing

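The number of arrays and, for Bmp4, Id3 and the dim probe sets of Smad7, Fst and Id2, signals near the 40th percentile limit what could be resolved. The same holds for Tgfbi in HRG and for Grem1 and the brighter Fst probe set in PTN. Member calls stayed within 1.5 times of 6, 7 and 5 in HRG against BSN, PTN against BSN and HRG against PTN under every alternative that kept all arrays. Within that bound the count in PTN against BSN fell to 5 after quantile normalisation, after median centring and in a fit of only these groups. It rose to 9 with array weights. With the replicate number as a block they were 7, 7 and 5, and the 1 added call was Id2 in HRG against BSN (adjusted p = 0.0422); the block changed no other call of a named gene. With single arrays left out the counts ran from 5 to 6, from 4 to 9 and from 3 to 5, the lowest without BSN replicate 3 in PTN against BSN and without HRG replicate 3 or PTN replicate 2 in HRG against PTN. By the mean of each gene's probe sets 5, 6 and 5 genes passed, against 4, 5 and 5 by the brightest. Only Smad7 and Fst had more than 1 kept probe set. For both, the mean includes the probe set kept through the BSN arrays alone, so the added calls against BSN are not used.

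Over all kept probe sets array weights gave 2439 calls in HRG against BSN and 3480 in PTN against BSN, against 1594 and 2276. With single arrays left out they ran from 1053 to 2225 and from 1358 to 3222, and in HRG against PTN from 1882 to 3109, against 2603.

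Signs turned only for log2 differences that had not passed. In HRG against PTN Bmp7 gave -0.0053 after quantile normalisation, Inhba -0.087 after quantile normalisation and -0.037 after median centring, and Smad7 1368896_at 0.14 with array weights. In PTN against BSN median centring gave 0.11 for Fn1, 0.11 for Sostdc1 and 0.065 for Twsg1, and array weights 0.084 for Sostdc1. With single arrays left out the ranges that crossed 0 were, in HRG against PTN, -0.013 to 0.28 for Bmp7, -0.86 to 0.37 for Smad7 1368896_at, -0.71 to 0.45 for Fst 1387843_at, -0.27 to 0.25 for Inhba and -0.11 to 0.030 for Tgif1, and in PTN against BSN -0.16 to 0.26 for Acvr2a, -0.12 to 0.057 for Fn1 and -0.16 to 0.16 for Sostdc1. Array weights also gave calls for Smad7 1368898_at (adjusted p = 0.0143), Bmp7 (0.0370), Fstl1 (0.0220) and Smad5 (0.0327) in PTN against BSN. The causes were not tested.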
